A study of Mus musculus with 6 samples.

Results

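The proteasome is the barrel-shaped protease that breaks down ubiquitin-tagged proteins in the cytosol and nucleus. Its core particle stacks rings of alpha subunits, which gate the entry, and beta subunits, some of which hold the catalytic sites. A regulatory particle caps the core, with a base of ATPases that unfold the substrate and a lid that removes ubiquitin, and macrophages and other immune cells can build an immunoproteasome in which the catalytic beta subunits Psmb5, Psmb6 and Psmb7 are replaced by Psmb8, Psmb9 and Psmb10. The members described here are the 50 of 23060 gene names in the expression table that begin with Psm, a letter from a to g and a digit. By role they were 7 core alpha genes (Psma1 to Psma7), 7 constitutive core beta genes (Psmb1 to Psmb7), 3 immune beta genes, 6 ATPases (Psmc), 14 non-ATPase genes (Psmd), 5 activators (Psme) and 4 core assembly chaperones (Psmg). The others were Psmf1, a proteasome inhibitor protein, and the tissue-restricted Psma8 (germ cells) and Psmb11 (thymus). The name rule also took in Psmc3ip, a meiotic recombination protein that binds an ATPase subunit and is no part of the proteasome, and it is given apart.

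RNA came from wild-type HL-1 cells, which are known as an atrial cardiomyocyte line of the mouse, with 3 control and 3 tachypaced libraries. Tachypacing is rapid electrical stimulation. The labels state neither its rate nor its duration. Cells of both groups grew in Claycomb medium with serum and norepinephrine, which keeps the line contractile. Nothing in the labels says whether replicates were separate cultures, so the spread behind each p-value may be technical. Expression is in FPKM, a fragment count scaled for transcript length and library size, which summed to between 411050 and 432244 a library. Read depth is unknown. The label was not borne out by most of its markers. Of 15 cardiomyocyte markers, 8 were at 0 in all 6 libraries and 13 averaged below 0.1 FPKM, among them Myh6, Actc1, Myl7 and Nkx2-5. The exceptions were Tnni3, at 2.78 to 3.64 FPKM in every library (mean 3.40), and Nppa, at a mean of 0.211 FPKM. The summed level of 14 macrophage markers was 10736 to 12348 FPKM in control libraries and 14227 to 16604 FPKM in tachypaced libraries, mostly osteopontin, with C1qa, C1qb and Mrc1 at 0. Of the 10 macrophage markers tested, 4 rose and 0 fell, and the part of this in the results below was not tested. In a bulk culture, fewer cells of a type and less RNA per cell cannot be told apart.

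Proteasome transcripts stood at a median level of 37.3 FPKM over the 50 members, and few changes passed the test. Of the 49 members tested, 2 fell in tachypaced libraries, the base subunit gene Psmd1 and the assembly chaperone gene Psmd5, and 0 rose (limma-trend on log2(FPKM + 1), Benjamini-Hochberg adjusted over 10361 genes, threshold 0.05). That is 4.08% of the members called, against 5.52% of all tested genes, and 4.08% called lower against 3.22%, so the share of calls was near the background. Genes called higher made up 2.3% of all those tested. At an unadjusted p under 0.05 there were 19 members, or 38.8%, against 30.2% of all genes. The median log2 fold change of the members was -0.07, against -0.04 over all tested genes, and 32 of 49 members, or 65.3%, had a negative value, against 58.9% of all tested genes. Control and tachypaced values did not overlap in 16 tested members, 7 higher and 9 lower, or 32.7%, against 34.9% of all tested genes (12.6% higher and 22.4% lower). The 50 members together made up 0.679%, 0.723% and 0.718% of the summed FPKM in control libraries and 0.662%, 0.666% and 0.662% in tachypaced libraries. These shares did not overlap, but the summed FPKM of the members did, at 2790, 2993 and 2995 in control and 2810, 2880 and 2778 in tachypaced libraries. The library totals were 411050 to 416820 in control and 419557 to 432244 in tachypaced libraries.

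**Figure D1:**
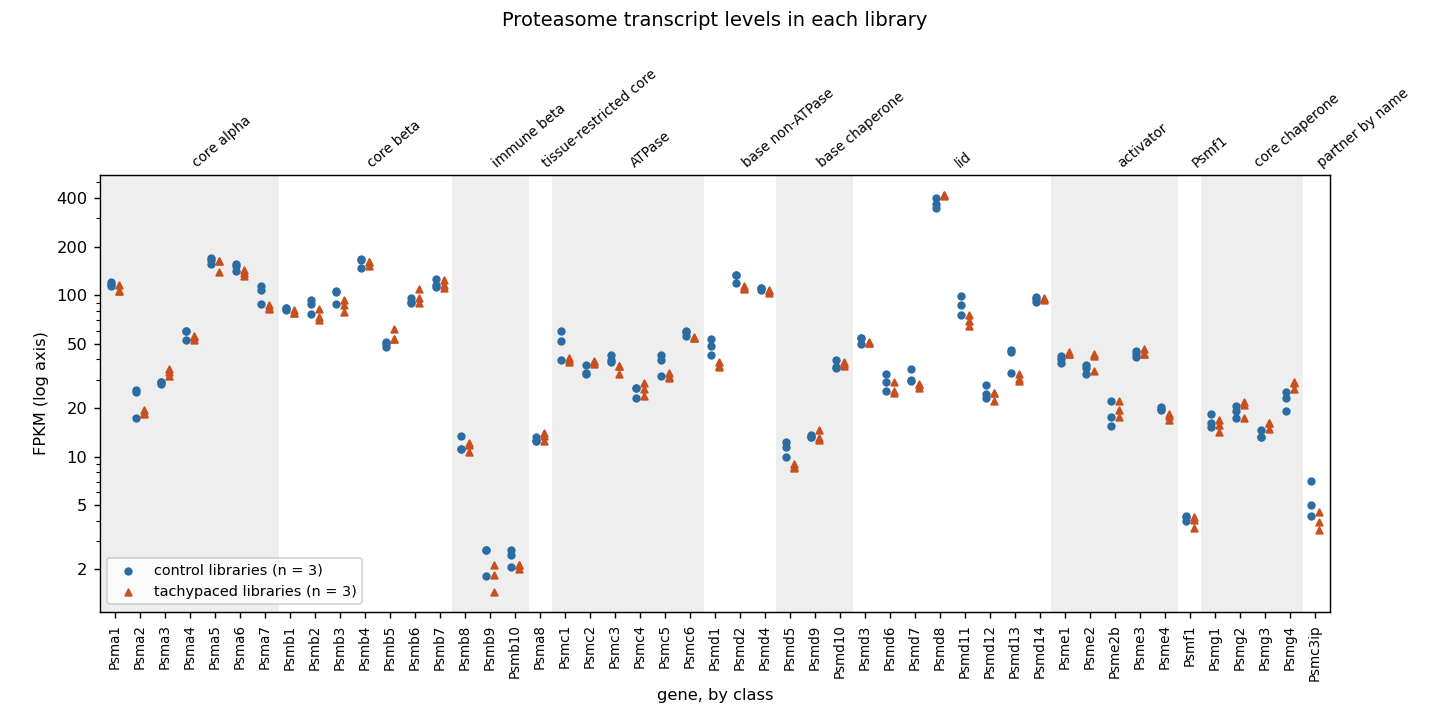
FPKM on a log axis for 49 proteasome genes in each of 3 control (circles) and 3 tachypaced (triangles) libraries, grouped by class, with Psmb11 left out because it was at 0 in every control library. Psmd8 stands highest at a mean of 394 FPKM and the immune genes Psmb9 and Psmb10 lowest at 2.09 and 2.24 FPKM.

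Of the 2 genes that fell, 1 encodes a subunit of the regulatory particle and 1 a chaperone of its assembly. Psmd1 encodes a large scaffold subunit of the base that holds ubiquitin receptors (chromosome 1, 86064387 to 86139151, plus strand, GRCm38). It stood at 42.7, 48.1 and 53.5 FPKM in control libraries and 36.4, 35.9 and 38.8 FPKM after tachypacing. The groups did not overlap, and the mean fell from 48.1 ± 5.40 to 37.0 ± 1.59 FPKM (SD, n = 3 each), 1.30-fold, with a log2 fold change of -0.36 (SE 0.08, limma adjusted p = 0.0455). Psmd5 encodes a chaperone that binds an ATPase while the base is assembled and is absent from the finished particle (chromosome 2, 34849734 to 34874968, minus strand). Its level was 10.0, 11.4 and 12.2 FPKM in control libraries and 8.56, 8.62 and 8.99 FPKM after tachypacing. Here too every tachypaced value lay below every control value, with means of 11.2 ± 1.13 and 8.73 ± 0.235 FPKM (SD, n = 3 each), 1.28-fold lower, and a log2 fold change of -0.32 (SE 0.08, limma adjusted p = 0.0492). Both adjusted p-values lay close to the threshold and ran from 0.00189 to 0.172 for Psmd1 and from 0.00345 to 0.174 for Psmd5 over 16 other settings. In 8 and 7 of these settings, respectively, the gene passed. The gene models overlap others on the opposite strand, Htr2b in Psmd1 and Cutal in Psmd5, and Psmd1 also overlaps the coding model Gm21972 on its own strand. Whether reads were assigned by strand is not given in the sources used here.

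The calls depended on which libraries were included. Control replicate 1 lay nearest to the tachypaced mean, of the 3 controls, in 32 of 49 tested members, or 65.3%, and in 55.2% of all tested genes. Without it, 20 members were called, or 40.8%, against 30% of all tested genes. Of these, 16 were lower, or 32.7% of the members against 18.8% of all genes, and 4 were higher, or 8.16% against 11.2%. Those 16 included Psmd1, Psmd5, Psma2, Psma7, Psmc1, Psmc5, Psmd2, Psmd11 and Psmd13, and the 4 were Psma3, Psmc2, Psmd8 and Psmg4. Leaving out any one of the other 5 libraries left 0 members called. Over all tested genes, the same settings left only 1 to 12 called higher and 0 to 1 called lower.

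**Figure D2:**
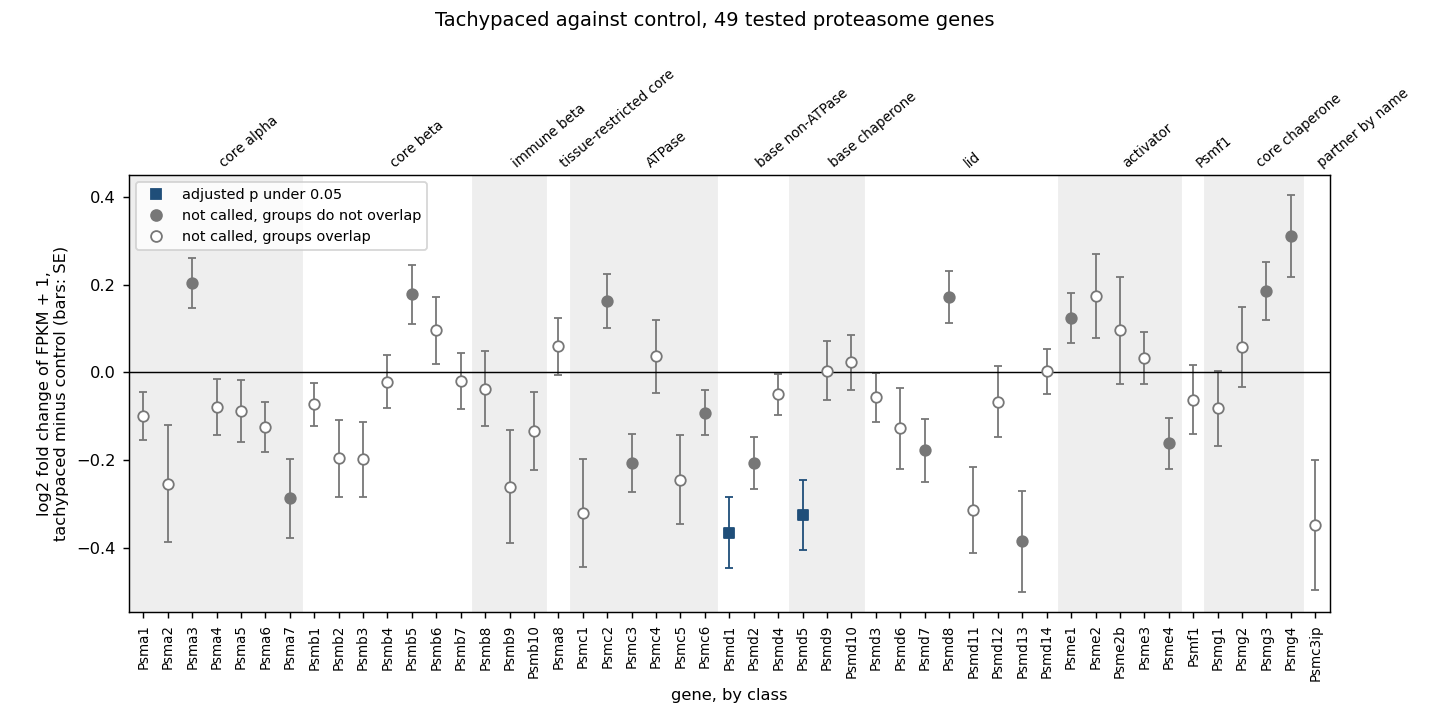
Log2 fold change of FPKM + 1, tachypaced minus control, with SE bars for the 49 tested members by class. Squares mark Psmd1 and Psmd5, which passed the test, and filled symbols mark genes whose groups do not overlap. Of the 49 values, 32 lie below 0 and 17 above.

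Stretches before the start sites are shown for members of 3 kinds. Psmd5, which passed the test, and Psmd2, which did not, were lower without overlap, and Psmd1 is not shown. Psma3 and Psmg4 had the largest positive values. Psmb5 and Psmb6 are the constitutive catalytic genes whose promoters hold the core of the antioxidant response element. Through that element the factor Nfe2l1 is known to raise proteasome genes when the protease is blocked. Each sequence comes from RefSeq (GRCm38.p6), runs 5′ to 3′ on the gene's strand and is the longest stretch within 250 bases before the start that overlaps no annotated exon. The Psmd5 stretch lies inside the gene span given above, so the start used for it is not the outer end of that span. Capitals mark matches, on either strand, to TGACNNNGC (the element's core), the CCAAT box CCAAT or the GC box GGGCGG.
Psmd5, chr2:34870963-34871107, minus strand: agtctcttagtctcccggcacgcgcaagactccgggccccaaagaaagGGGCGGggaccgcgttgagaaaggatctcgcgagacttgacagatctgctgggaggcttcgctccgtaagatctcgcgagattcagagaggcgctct
Psmd2, chr16:20651402-20651651, plus strand: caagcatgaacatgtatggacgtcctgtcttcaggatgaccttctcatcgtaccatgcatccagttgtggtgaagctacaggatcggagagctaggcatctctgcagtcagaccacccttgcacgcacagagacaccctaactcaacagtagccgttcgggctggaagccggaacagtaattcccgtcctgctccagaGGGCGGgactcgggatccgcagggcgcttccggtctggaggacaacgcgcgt
Psma3, chr12:70974373-70974620, plus strand: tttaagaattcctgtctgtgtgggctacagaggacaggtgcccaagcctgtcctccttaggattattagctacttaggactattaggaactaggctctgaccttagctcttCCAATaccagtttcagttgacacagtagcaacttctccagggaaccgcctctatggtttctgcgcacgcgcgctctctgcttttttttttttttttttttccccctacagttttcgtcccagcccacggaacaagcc
Psmg4, chr13:34162714-34162963, plus strand: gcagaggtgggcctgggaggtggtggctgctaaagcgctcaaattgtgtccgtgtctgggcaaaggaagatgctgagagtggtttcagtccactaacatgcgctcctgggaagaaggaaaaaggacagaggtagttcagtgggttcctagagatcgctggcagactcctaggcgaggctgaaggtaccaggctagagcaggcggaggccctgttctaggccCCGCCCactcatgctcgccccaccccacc
Psmb5, chr14:54618023-54618245, minus strand: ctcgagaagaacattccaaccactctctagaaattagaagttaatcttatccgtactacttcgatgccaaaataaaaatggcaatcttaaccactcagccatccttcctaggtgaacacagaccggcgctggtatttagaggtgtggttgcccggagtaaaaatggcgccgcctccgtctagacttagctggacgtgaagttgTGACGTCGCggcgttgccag
Psmb6, chr11:70525107-70525356, plus strand: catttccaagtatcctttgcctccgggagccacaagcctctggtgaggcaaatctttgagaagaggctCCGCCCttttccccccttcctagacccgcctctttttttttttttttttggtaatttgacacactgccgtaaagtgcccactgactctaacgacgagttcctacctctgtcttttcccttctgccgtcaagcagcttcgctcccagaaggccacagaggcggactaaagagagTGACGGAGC

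Of the 50 members, 42 had a RefSeq promoter. Over the full 250 bases, TGACNNNGC was found in 5 of the 42 (Psmb5, Psmb6, Psmc6, Psmd9 and Psmd12), or 11.9%, against 11.5% of 27025 genes with a promoter and 13.9% of the 8024 of these that were tested. CCAAT was found in 15 members, or 35.7%, against 37.5% and 41.3%, and GGGCGG in 22 members, or 52.4%, against 35.4% and 66.2%. Of the 5 members with the antioxidant response element core, Psmb5 was higher and Psmc6 lower without overlap of the groups, and neither passed the test. Of all tested genes, 12.6% were higher and 22.4% lower without overlap, so this is no trait of members with the element. The interferon gamma activation site TTCNNNGAA was found in Psmb8 and Psmg1, or 4.76% of the members, against 8.13% of all genes. The interferon-stimulated response element, searched as a pair of GAAA blocks 2 bases apart, was found in Psmb3, Psmd4 and Psmd9, or 7.14%, against 3.46%. The shares of members with the first 2 motifs were thus close to those of all genes, and a match to these letters is a description and not a binding site.

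The 7 alpha subunit genes encode proteins that occur in equal numbers in each ring, but protein was not measured here. Their mean levels over the 6 libraries spread from 20.8 FPKM for Psma2 to 159 FPKM for Psma5, a 7.65-fold range. FPKM is scaled for transcript length, and the longest coding transcripts of Psma2 and Psma3 had 2911 and 2846 bases. Those of the other alpha genes had 1042 to 1239 bases. The part of length in this spread was not tested. The coding model AW209491 overlaps Psma2 on its own strand. None of the 7 passed the test. Psma5 stood at 156, 169 and 166 FPKM in control libraries and 162, 163 and 139 FPKM after tachypacing, which overlap. Psma2 stood at 17.3, 25.3 and 26.04 FPKM in control libraries and 18.5, 18.3 and 19.5 FPKM after tachypacing. Control replicate 1 was the lowest library for Psma2, below every tachypaced library, while the other controls were the highest. Psma7 had the lowest log2 fold change of the class, -0.29 (SE 0.09, adjusted p = 0.0816), from values of 87.8, 108 and 114 FPKM in control libraries and 82.9, 87.0 and 82.4 FPKM after tachypacing. Its groups did not overlap, by less than 1 FPKM between control replicate 1 and tachypaced replicate 2. Psma3 had the highest, 0.20 (SE 0.06, adjusted p = 0.0631), from 29.1, 29.0 and 28.3 FPKM in control libraries and 34.99, 33.4 and 31.6 FPKM after tachypacing. Psma3 was thus tight in controls, including control replicate 1, and every tachypaced value lay above them. A noncoding transcript, 3110056K07Rik, overlaps the Psma3 model on the opposite strand.

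The 7 constitutive beta genes were closer in level, from 52.9 FPKM for Psmb5 to 159 FPKM for Psmb4, a 3.0-fold range, and none passed the test. Psmb4, a structural subunit, stood at 148, 166 and 167 FPKM in control libraries and 160, 161 and 151 FPKM after tachypacing. Psmb5 carries the chymotrypsin-like site, Psmb6 the caspase-like site and Psmb7 the trypsin-like site. Psmb5 stood at 51.5, 49.6 and 47.6 FPKM in control libraries and 53.6, 61.6 and 53.7 FPKM after tachypacing, without overlap, and had the largest positive log2 fold change of the class, 0.18 (SE 0.07, adjusted p = 0.119). Psmb6 stood at 90.4, 88.9 and 96.5 FPKM against 89.4, 110 and 96.3 FPKM, and Psmb7 at 113, 126 and 116 FPKM against 124, 116 and 110 FPKM. For Psmb6 and Psmb7 the groups overlapped. Psmb3 had the lowest value, -0.20 (SE 0.09, adjusted p = 0.158), with 88.0, 105 and 106 FPKM in control libraries and 79.0, 93.1 and 87.4 FPKM after tachypacing. Control replicate 1 lay among the tachypaced values of Psmb3 and the other controls above them.

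The immune beta genes were the lowest subunit genes of the core apart from Psmb11. Psmb8 stood at 11.1, 13.3 and 11.2 FPKM in control libraries and 10.6, 11.8 and 12.1 FPKM after tachypacing, a log2 change of -0.04 (SE 0.09, limma adjusted p = 0.801). Psmb9 stood at 1.83, 2.63 and 2.65 FPKM and at 1.85, 1.46 and 2.12 FPKM, and Psmb10 at 2.08, 2.45 and 2.64 FPKM and at 2.01, 2.12 and 2.13 FPKM. In all 3 the groups overlapped and none passed (adjusted p = 0.205 for Psmb9 and 0.335 for Psmb10). Psmb9 was called lower in 2 of 15 other settings. These were library weights and leaving out control replicate 1 (log2 fold change -0.38, limma adjusted p = 0.0344). At these low levels the log2(FPKM + 1) scale understates changes. Psmb9 shares its promoter region with Tap1, the peptide transporter gene, and the models overlap on opposite strands. The 3 immune genes made up 6.01% ± 0.478 of the FPKM of the 6 catalytic genes in control and 5.38% ± 0.467 in tachypaced libraries (SD, n = 3 each), by library 5.56%, 6.51% and 5.95% against 5.15%, 5.08% and 5.92%. The immune share was thus small in every library, and the groups overlapped.

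Within a library, the ratio of an immune gene to the constitutive gene it replaces does not depend on the library total. Psmb8 stood at 21.5%, 26.8% and 23.5% of Psmb5 in control and 19.9%, 19.1% and 22.6% in tachypaced libraries. Psmb9 stood at 2.02%, 2.95% and 2.75% of Psmb6 in control and 2.07%, 1.32% and 2.20% in tachypaced libraries. Psmb10 stood at 1.85%, 1.95% and 2.27% of Psmb7 in control and 1.62%, 1.83% and 1.93% in tachypaced libraries. The order was the same in every library, with Psmb8 nearest to its counterpart. The log2 ratios differed by -0.22, -0.48 and -0.17 (tachypaced minus control), and all 3 pairs overlapped between groups. They were not tested. Single libraries moved them: the first became -0.14 without control replicate 2, the second -0.25 without tachypaced replicate 2, and the third -0.08 without control replicate 3 and -0.10 without tachypaced replicate 1.

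**Figure D3:**
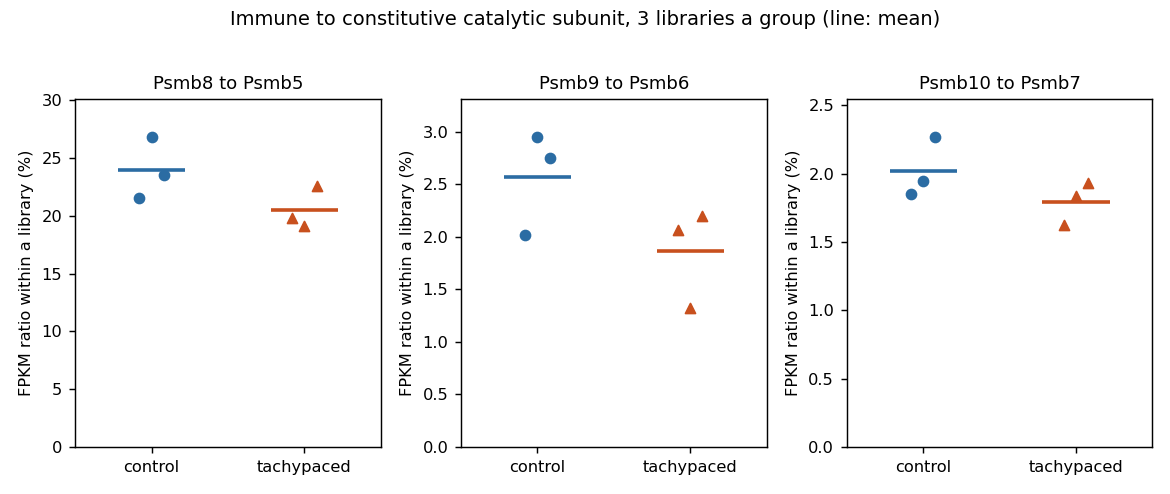
FPKM of Psmb8, Psmb9 and Psmb10 as a percentage of Psmb5, Psmb6 and Psmb7 in each of 3 control (circles) and 3 tachypaced (triangles) libraries, with horizontal lines at the group means. The mean is 24.0% against 20.5% for Psmb8 to Psmb5, and the values of the groups overlap in each panel.

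Of the tissue-restricted core genes, Psmb11 was at 0 in all control libraries and at 0.0165, 0.00952 and 0.00386 FPKM in tachypaced libraries. These levels are below the minimum for testing, and it is the only member not tested. Psma8, known from male germ cells, was by contrast present in every library, at 12.5, 12.5 and 13.2 FPKM in control libraries and 14.0, 12.4 and 13.4 FPKM after tachypacing (adjusted p = 0.570). Psma8 is the paralog of Psma7, and the longest coding transcripts were identical at 72.1% of 1141 aligned bases with no identical run over 17 bases. Psma8 stood at 14.2%, 11.6% and 11.5% of Psma7 in control and 16.9%, 14.3% and 16.3% in tachypaced libraries, without overlap. This ratio was chosen after its values were seen.

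The 6 ATPases form the ring that unfolds substrates, and their levels were more even than those of the alpha, beta or lid genes, from 25.8 FPKM for Psmc4 to 56.4 FPKM for Psmc6, a 2.19-fold range. None passed the test. Psmc1 had the lowest log2 fold change, -0.32 (SE 0.12, adjusted p = 0.122), with 39.9, 51.9 and 59.8 FPKM in control libraries and 38.4, 40.9 and 39.9 FPKM after tachypacing. Control replicate 1 stood with the tachypaced libraries, and the spread of Psmc1 among controls was 10.0 FPKM (SD) against 1.26 FPKM among tachypaced libraries. Psmc2 went the other way at 0.16 (SE 0.06, adjusted p = 0.117), with 37.0, 33.0 and 32.7 FPKM in control libraries and 39.0, 38.4 and 37.7 FPKM after tachypacing, which did not overlap. Psmc6 was lower without overlap, at 55.6, 60.2 and 59.0 FPKM against 54.4, 54.8 and 54.5 FPKM, and so was Psmc3, at 38.8, 39.8 and 42.7 FPKM against 32.3, 36.2 and 36.2 FPKM. Psmc4 stood at 23.1, 26.7 and 26.5 FPKM against 23.7, 28.7 and 26.1 FPKM, which overlapped.

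The rule's Psmd genes hold more than the lid, and they were split here by known role, after their values were seen, into 3 base subunits, 3 base chaperones and 8 lid subunits. In the base, all 3 log2 fold changes were negative, as were those of 58.9% of all tested genes. Psmd2, a scaffold subunit like Psmd1, stood at 119, 134 and 134 FPKM in control libraries and 109, 114 and 111 FPKM after tachypacing, without overlap (log2 fold change -0.21, SE 0.06, adjusted p = 0.0668). Psmd4, a ubiquitin receptor, stood at 107, 111 and 111 FPKM against 104, 108 and 107 FPKM (-0.05, adjusted p = 0.506). The summed FPKM of the 3 base genes was 269, 293 and 299 in control and 249, 258 and 257 in tachypaced libraries, so the sums did not overlap. The chaperones Psmd9 and Psmd10 did not share the value of Psmd5. Psmd9 stood at 13.5, 13.2 and 13.2 FPKM against 12.6, 14.5 and 12.95 FPKM, and Psmd10, also known as the oncoprotein gankyrin, at 39.8, 35.7 and 35.2 FPKM against 37.3, 38.7 and 36.4 FPKM. For Psmd9 and Psmd10 the groups overlapped, with adjusted p-values of 0.974 and 0.833 by limma.

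The lid held both the highest member and the member with the lowest log2 fold change. Psmd8 stood at 398, 369 and 346 FPKM in control libraries and 421, 420 and 411 FPKM after tachypacing, without overlap (log2 fold change 0.17, SE 0.06, adjusted p = 0.0974). Its mean of 394 FPKM was 16.1 times that of Psmd12, the lowest lid gene. Lid subunits are present once each in the particle, but protein was not measured here. Psmd14, which encodes the metalloprotease that cuts ubiquitin chains off the substrate, stood at 97.9, 95.4 and 90.6 FPKM against 95.3, 92.8 and 96.1 FPKM, among the steadiest members (log2 fold change 0.00, SE 0.05). The ratio of Psmd8 to Psmd14, chosen after its values were seen, was 407%, 387% and 382% in control and 441%, 453% and 427% in tachypaced libraries, again without overlap. Psmd13 had the lowest log2 fold change of all members, -0.38 (SE 0.11, adjusted p = 0.0718), with 32.8, 44.4 and 45.9 FPKM in control libraries and 30.4, 29.6 and 32.7 FPKM after tachypacing. Control replicate 1 and tachypaced replicate 3 differed by only about the last digit shown, so the groups were barely apart. The Psmd13 model overlaps Sirt3, a mitochondrial deacetylase gene, on the opposite strand. Psmd11 stood at 75.7, 99.4 and 86.5 FPKM against 64.5, 69.0 and 75.8 FPKM (-0.31, adjusted p = 0.0814) and Psmd12 at 23.0, 24.4 and 27.8 FPKM against 24.9, 24.6 and 22.03 FPKM. For Psmd11 and Psmd12 the groups overlapped. Of the remaining lid genes, Psmd7 was lower without overlap, at 29.2, 30.0015 and 34.7 FPKM against 27.6, 26.7 and 28.2 FPKM, and Psmd3 and Psmd6 overlapped.

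The activators cap the core in place of the regulatory particle and need no ubiquitin. Psme1 and Psme2 form the interferon-inducible ring PA28 alpha-beta, Psme3 forms a nuclear ring and Psme4 is a large single-chain cap. None of the 5 genes passed. Of the 5 log2 fold changes 4 were positive, while 58.9% of all tested genes had a negative value. The 4 include Psme2 and its near copy Psme2b, which was at -0.01 without control replicate 1. Psme1 stood at 37.8, 40.3 and 42.1 FPKM in control libraries and 43.3, 43.2 and 44.6 FPKM after tachypacing, without overlap (log2 fold change 0.12, SE 0.06, adjusted p = 0.180). Psme2 stood at 37.2, 32.3 and 35.6 FPKM against 33.9, 43.5 and 42.1 FPKM, and Psme3 at 41.2, 43.5 and 45.4 FPKM against 46.5, 43.3 and 43.3 FPKM. Both of these overlapped. Psme4 was the exception in sign, at 19.7, 19.6 and 20.4 FPKM against 17.9, 16.8 and 18.3 FPKM, without overlap (-0.16, SE 0.06, adjusted p = 0.105). Psme2b, on chromosome 11, is a near copy of Psme2 on chromosome 14. The transcripts were identical at 98.1% of 824 aligned bases, with an identical run of 341 bases, so reads could be divided between them either way. The coding models Gm12185 and 9930111J21Rik1 also overlap Psme2b on its own strand. Psme2b had 15.6, 22.02 and 17.6 FPKM in control libraries and 21.95, 17.5 and 19.3 FPKM after tachypacing, with overlap. Psme2b stood at 41.9%, 68.2% and 49.4% of Psme2 in control and 64.8%, 40.3% and 46.0% in tachypaced libraries, a wide scatter in both groups.

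Core assembly begins with Psmg1 and Psmg2, which pair as a chaperone for the alpha ring, and with Psmg3 and Psmg4, which form another pair. None of the 4 passed. Psmg4 had the largest positive log2 fold change of all members, 0.31 (SE 0.09, adjusted p = 0.0733), with 23.0, 25.2 and 19.2 FPKM in control libraries and 29.1, 28.5 and 26.3 FPKM after tachypacing. Psmg3 stood at 13.2, 13.3 and 14.5 FPKM against 16.1, 16.2 and 14.8 FPKM (0.18, SE 0.07, adjusted p = 0.105). In both genes of this pair every tachypaced value lay above every control value. The coding model Gm26938 overlaps Psmg3 on its own strand. Psmg1 stood at 15.2, 18.3 and 16.2 FPKM against 16.9, 15.7 and 14.2 FPKM, and Psmg2 at 17.4, 19.3 and 20.5 FPKM against 21.7, 20.8 and 17.4 FPKM, both with overlap. Psmf1 stood at 4.00021, 4.22 and 4.31 FPKM against 3.61, 4.24 and 4.04 FPKM. Psmc3ip stood at 4.26, 5.02 and 7.02 FPKM against 4.52, 3.52 and 3.94 FPKM, a log2 change of -0.35 (SE 0.15, limma adjusted p = 0.153).

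The class medians show where control replicate 1 lay. Relative to the control mean of each gene on the log2(FPKM + 1) scale, the median over the core alpha genes was -0.08 in control replicate 1 against 0.05 in each of the other controls, and -0.07, -0.06 and -0.14 in the tachypaced libraries. The ATPases gave -0.10 in control replicate 1, 0.05 and 0.07 in the other controls and -0.14, -0.12 and -0.12 in the tachypaced libraries. Lid genes gave -0.10, 0.01 and 0.09 in control and -0.11, -0.05 and -0.16 in tachypaced libraries. In these classes control replicate 1 lay within or near the tachypaced range. The base genes were at -0.11, 0.02 and 0.06 in control and at -0.24, -0.17 and -0.21 in tachypaced libraries, so there it lay between. The core chaperones were at -0.08, 0.08 and 0.03 in control and at 0.20, 0.17 and -0.01 in tachypaced libraries, where it lay at the far end. Over all 10361 tested genes the library medians ran from -0.05 to 0.02. A class median rests on far fewer genes and can scatter more, so the ranges are not directly comparable.

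**Figure D4:**
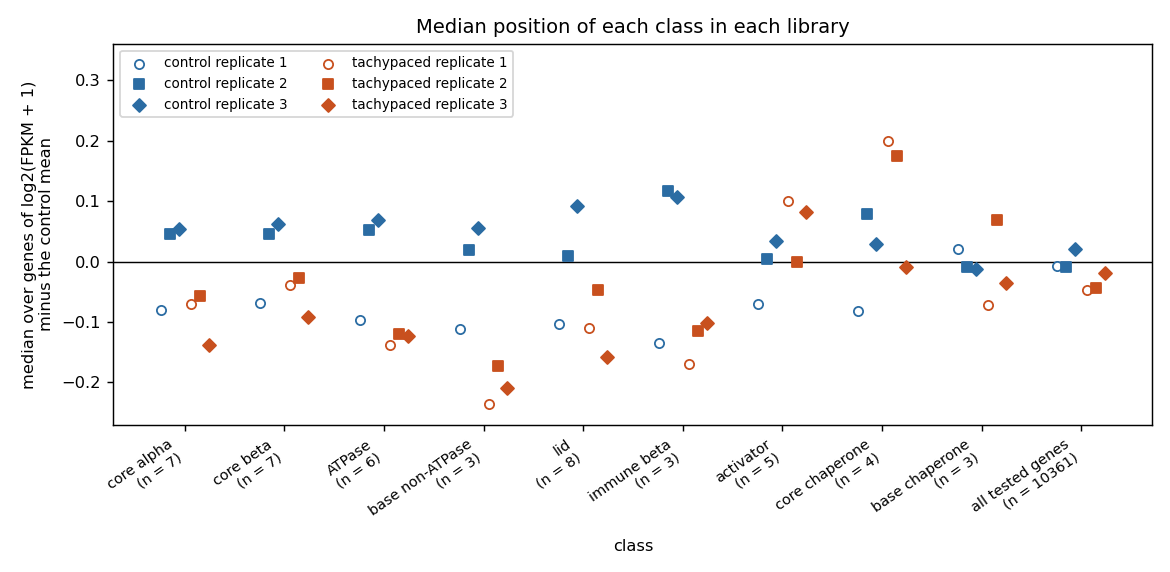
Median over the genes of each class of log2(FPKM + 1) minus that gene's control mean, for each of the 6 libraries, with all 10361 tested genes at the right. Control replicate 1 (open blue circle) lies at -0.08 for core alpha and -0.10 for ATPase genes, near the tachypaced libraries, and at -0.08 for core chaperones, away from them.

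Longer members tended to have lower log2 fold changes. Over the 49 tested members, the Spearman correlation of the log2 fold change with the length of the longest coding transcript was -0.30, and over 9783 tested genes with such a transcript it was -0.16. Genes share the same 6 libraries and are not independent, so these are descriptions with no p. Psmd5 and Psmd1, at 4397 and 3112 bases, were among the longest members, and Psmg4, at 555 bases, was the shortest. The longest member, Psme4, at 6491 bases, had a log2 fold change of -0.16. Several members went against the tendency, among them Psma3, at 2846 bases and 0.20. Psma7 and Psmb3, at 1157 and 766 bases, were at -0.29 and -0.20. RNA quality was not measured, and the part of transcript length in the fold changes was not tested.

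**Figure D5:**
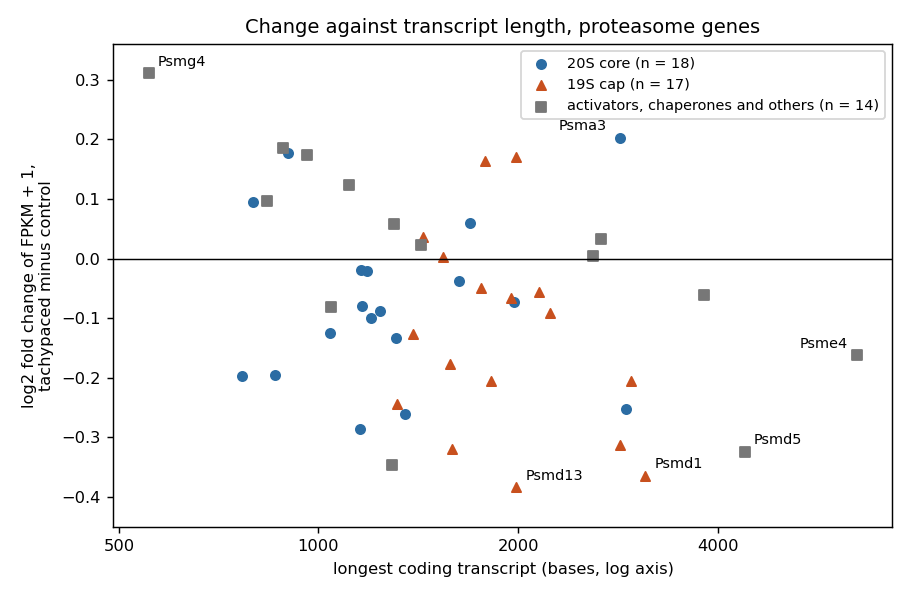
Log2 fold change of FPKM + 1, tachypaced minus control, against the length of the longest coding transcript (log axis) for the 49 tested members, with core genes as circles, cap subunits as triangles and the others as squares. Psmg4, the shortest at 555 bases, has the highest value at 0.31, and Psmd1 and Psmd5, at 3112 and 4397 bases, lie at -0.36 and -0.32.

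Beyond the members, 5 lists were read: proteasome partners, regulators of proteasome genes, ubiquitin and its enzymes, interferon and antigen presentation genes, and other proteases. Of their genes, 85 were tested, 1 rose and 1 fell, or 2.35% called against 5.52% of all tested genes. Without control replicate 1, 12 of the 85 were called higher and 17 lower. In that setting 11.2% of all tested genes were called higher and 18.8% lower. Of 19 partners and shuttle factors, 0 passed, with a median log2 fold change of -0.06. The highest were the shuttle Rad23b and the ubiquitin-binding Ubxn1, at means of 109 and 107 FPKM. Pomp, the chaperone that helps the core particle close, stood at 52.8 ± 3.99 FPKM in control libraries and 46.1 ± 0.855 FPKM after tachypacing, and the receptor Adrm1 at 52.0 ± 1.64 and 57.9 ± 1.66 FPKM (SD, n = 3 each). Neither passed (limma adjusted p = 0.0917 and 0.0931). Of 19 regulators of proteasome genes, 0 passed, with a median of 0.05. Vcp, the ATPase that pulls proteins out of membranes and the highest of the list with Nfe2l1, stood at 84.3 ± 12.97 and 63.8 ± 0.392 FPKM (SD, n = 3 each, limma adjusted p = 0.0556). Of 17 ubiquitin and conjugating enzyme genes, 1 rose and 1 fell, with a median of -0.05. Ube2c, the mitotic conjugating enzyme, fell from 58.5 ± 5.37 to 42.4 ± 3.85 FPKM (log2 fold change -0.45, SE 0.08, limma adjusted p = 0.0435). Ube2l6, which conjugates the interferon-induced modifier Isg15, rose from 18.2 ± 0.278 to 22.2 ± 1.63 FPKM (0.27, SE 0.07, limma adjusted p = 0.0491). Rps27a, a gene for ubiquitin fused to a ribosomal protein, stood at a mean of 1140 FPKM. Of 18 tested interferon and antigen presentation genes, 0 passed, with a median of 0.07. B2m, the light chain of class I molecules, stood at 595 ± 15.2 and 701 ± 82.1 FPKM (SD, n = 3 each, limma adjusted p = 0.104). Of the class I heavy chain genes, H2-D1 was higher like B2m, at 204 ± 17.2 and 233 ± 3.42 FPKM (SD, n = 3 each, limma adjusted p = 0.0890). H2-K1 went the other way with overlapping groups, at 78.3 ± 11.1 and 60.6 ± 8.90 FPKM (SD, n = 3 each, limma adjusted p = 0.0842). Of 12 other proteases, 0 passed, with a median of -0.16. Of the 12, 7 were lower without overlap, as were 22.4% of all tested genes. Without control replicate 1, 7 of the 12 were called lower and 1 higher, against 18.8% and 11.2% of all tested genes. The largest changes were those of Clpx, a mitochondrial protease subunit gene, at 28.7 ± 4.02 and 22.8 ± 1.09 FPKM, and the calpain gene Capn2, at 35.8 ± 2.77 and 29.2 ± 2.05 FPKM (SD, n = 3 each).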

How the data were processed

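FPKM per gene name were deposited by the authors in 1 table, with 3 control and 3 tachypaced columns. Per the submitters' processing notes, reads were placed on GRCm38 (mm10). How reads were aligned, counted and assigned by strand was not given in the sources used here. Each column name occurs in 1 sample's description, and titles give the groups. Ratios of low values between libraries shared no common step, with at most 6.67% of genes in any 1 narrow bin, so whole reads could not be recovered, and depth and detection limits are unknown.

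Values were transformed to log2(FPKM + 1). A mean of 1 FPKM or more was required, which left 10361 genes for limma 3.58.1 under R 4.3.3 (trend, two-sided, tachypaced minus control, no covariate), with Benjamini-Hochberg adjustment over all of them and a threshold of 0.05. The steps were tested on simulated data with independent errors and changes larger than that of any member. Recovery of changes as small as those of the members was not tested. Members follow a name rule, and members, lists and tests were chosen with earlier results of these data known. Values in every library are given for called members, catalytic, activator, tissue-restricted and chaperone genes, and for the extremes of level and change in each class. Genes of other lists are named by calls, largest changes and levels. Positions and transcripts are from GENCODE M21, and transcripts were aligned locally with Biopython 1.88. Alternatives were a pseudocount of 0.1, other filters (none, 5 FPKM), scalings and limma settings, the replicate block, and leaving out each library. Some genes of the other lists that this rule names are not reported here.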

Additional observations from a re-analysis of the deposited data

How the results depend on the processing

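Of all tested genes, 238 were higher and 334 lower. The counts became 0 and 0 with no filter on low values, 13 and 4 with quantile normalization and 2 and 0 without the trend. They were 221 and 184 with median of ratios scaling, 250 and 924 with rescaling to a common total, and 1154 and 1942 with library weights, an alternative added after seeing the data. Leaving out a library gave 1 to 1162 higher and 0 to 1947 lower, with both upper values from leaving out control replicate 1. Of the members, 0 were higher and 2 lower. The counts were 0 and 0 with no filter, quantile normalization or no trend, 0 and 1 with median of ratios scaling, 0 and 7 with the common total, and 5 and 13 with library weights. Leaving out a library gave 0 to 4 members higher and 0 to 16 lower. The cause of these changes was not tested. The median log2 fold change of the members ran from -0.12 to -0.05 when a library was left out. Scaling changed the sign of 8 members with values near 0 (Psmb4, Psmb7, Psmb8, Psmc4, Psmd9, Psmd10, Psmd14 and Psme3), none of them called.

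Same-numbered libraries did not deviate together (correlations of 0.0615, -0.034 and 0.157), so the replicate block rests on numbers alone. With the replicate block 334 of all genes were higher and 591 lower, and of the members 1 was higher, Psmg4, and 3 lower.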
